A study of Mus musculus with 9 samples.

Results

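Klf2 and the Krüppel-like factor (KLF) family were followed in Hepa1-6, a mouse hepatoma cell line, after treatment with the pleuromutilin antibiotics lefamulin or tiamulin. Of the 56748 genes in the deposited table, 10 were described as members, namely Klf2, Klf3, Klf4, Klf5, Klf6, Klf9, Klf10, Klf11, Klf13 and Klf16, and 9 of them had enough counts to be tested. The family was chosen by name, and Klf2 was chosen by its difference between the drugs, the largest in the family. The values of Klf2, and every member's difference between tiamulin and lefamulin, are therefore given as a description without a p value. The remaining 7 Klf genes of the table (Klf1, Klf7, Klf8, Klf12, Klf14, Klf15 and Klf17) and the 9 genes of the related Sp family were used for comparison.

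Each of the 3 groups had 3 RNA-Seq libraries. One received 37 µg/mL lefamulin, one 37 µg/mL tiamulin, both for 2 days, and the control was untreated according to the labels and received vehicle according to the methods of the study. All groups were a single cell line grown in DMEM with fetal bovine serum and penicillin-streptomycin. Both drugs share the pleuromutilin core and differ in the side chain attached to it. They were matched by mass concentration and by time, not by molar concentration. Replicates are numbered in the labels, but nothing says whether they came from separate cultures, so the p values measure the spread between these libraries only.

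KLFs are transcription factors that bind CACCC and GC-rich elements through zinc fingers at the C terminus, which are much alike across the family. The N-terminal parts differ, and by these KLFs are commonly divided into activators (Klf1, Klf2, Klf4, Klf5, Klf6, Klf7), repressors that recruit CtBP (Klf3, Klf8, Klf12) and repressors that recruit Sin3 (Klf9, Klf10, Klf11, Klf13, Klf14, Klf16). Klf2 is best known for quiescence in endothelium and T cells, where the kinase ERK5 and MEF2 factors drive its transcription together with that of Klf4, and statins induce it. In liver, Klf6 is known from the response to injury and Klf9 as a gene responsive to thyroid hormone and glucocorticoids.

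RefSeq promoters (assembly GRCm38.p6) were matched by symbol for 7 of the 10 members, that is all but Klf5, Klf10 and Klf16. The 250 bases before the annotated start are shown, 5′ to 3′ on the strand of the gene, for Klf2 and Klf4, the members with the largest differences between the drugs, and for Klf9, the other member with a MEF2-like match. They lie at chr8:72318812-72319061 (plus strand), chr4:55532476-55532725 (minus strand) and chr19:23140976-23141225 (plus strand). Capitals mark matches on either strand to CTANNNNTA, a loose form of the MEF2 site in which N is any base, or to GGGCGG, a GC box.
Klf2: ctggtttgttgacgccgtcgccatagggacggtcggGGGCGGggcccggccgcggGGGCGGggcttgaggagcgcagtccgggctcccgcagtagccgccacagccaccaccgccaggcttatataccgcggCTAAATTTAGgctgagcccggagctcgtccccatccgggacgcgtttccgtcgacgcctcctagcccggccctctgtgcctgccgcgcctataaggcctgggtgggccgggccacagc
Klf4: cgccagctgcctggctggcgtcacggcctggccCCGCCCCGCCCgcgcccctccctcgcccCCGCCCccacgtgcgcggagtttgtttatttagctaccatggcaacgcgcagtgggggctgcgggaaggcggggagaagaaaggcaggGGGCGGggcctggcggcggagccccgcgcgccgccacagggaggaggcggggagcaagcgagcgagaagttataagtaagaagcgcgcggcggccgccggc
Klf9: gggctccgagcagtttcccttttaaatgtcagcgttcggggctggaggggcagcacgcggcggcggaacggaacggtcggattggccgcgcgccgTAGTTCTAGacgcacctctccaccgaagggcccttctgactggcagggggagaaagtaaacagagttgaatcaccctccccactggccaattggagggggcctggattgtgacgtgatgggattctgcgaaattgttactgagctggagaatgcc
The Klf2 promoter held the match CTAAATTTA from position -118 relative to the start, which reads as a match on the other strand as well, offset by 1 base. It also held 2 GC boxes, from positions -214 and -195. The loose MEF2 pattern was matched in 2 of the 7 member promoters (Klf2 and Klf9) and in 19% of the 32851 promoters of the table. A MEF2 site has only A or T at the N positions, which holds for the match in Klf2. The match in Klf9 has G and C there as well. The arrangement on both strands seen in Klf2 was present in 3.2% of all promoters. Klf4, with 4 GC boxes of which a pair overlaps by 1 base, held no match to the MEF2 pattern in this window. A GC box was present in 6 of the 7 members, all but Klf9, and in 32.7% of all promoters. CCAAT was present in 4 of the 7 (Klf6, Klf9, Klf11 and Klf13) and in 33.8% of all promoters, and neither Klf2 nor Klf4 held it. CACCC, the element that KLFs themselves bind, was present in 4 of the 7, Klf2 among them, and in 52% of all promoters. TGACG, the core of a cAMP response element, was present in 4 of the 7 (Klf2, Klf4, Klf9 and Klf13) and in 17.8% of all promoters, and TATAAA in 0 of the 7 and in 12.4%. Both strands were searched, and matches to different motifs were allowed to overlap. These are matches of letters in a fixed window, not measured binding.

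Library totals lay between 15568887 and 18008105 counts on genes. Within the groups, pairs of libraries were further apart than sampling noise, with a chi-square per degree of freedom of 2.88 to 7.57, and of 18.1 and above for the pairs that included tiamulin 2. In tiamulin 2, the deviation of genes from the group mean followed their GC content (Spearman's rho 0.720 over 9171 genes, a value across genes and not replicates). The opposite was seen in tiamulin 1 and tiamulin 3 (rho -0.579 and -0.615), and control 1 and control 2 stood apart in the same way (0.539 and -0.525). Within a group the deviations of a gene cancel out, so opposite signs in a group are not separate observations. Klf2 and Klf16 have the most GC-rich transcripts among the members (61.6% and 60.4%), and Klf6 the least (42.4%). Values without tiamulin 2 are given beside the results of the members and, for the remaining members, with their counts.

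The level of Klf2 was lowest in the controls, intermediate under tiamulin and highest under lefamulin. Klf2 (ENSMUSG00000055148) lies on chromosome 8 from 73072877 to 73075500 on the plus strand, in the coordinates of the deposited table, which are not those of GRCm38. In TMM-normalized CPM, that is counts scaled to a common library total, it stood at 3.06, 1.8 and 2.23 in controls 1, 2 and 3, at 25.6, 27.1 and 26.4 under lefamulin, and at 5.84, 7.69 and 5.18 under tiamulin. These values rest on 31 to 53 reads per control library, 88 to 123 per tiamulin library and 400 to 450 per lefamulin library. The 3 groups did not overlap, with 26.4 ± 0.777 CPM (SD, n = 3) against 6.24 ± 1.30 under tiamulin and 2.37 ± 0.638 in the controls. The highest control, control 1, and the highest tiamulin library, tiamulin 2, were the libraries in which GC-rich genes were high within their group. The fitted level under lefamulin was 11.1-fold that of the control (95% interval 8.59 to 14.5), a log2(fold change) of 3.47 (SE 0.18). Under tiamulin it was 2.63-fold (1.97 to 3.51), a log2(fold change) of 1.39 (SE 0.20), and 1.22 without tiamulin 2. Between the drugs, the Klf2 level was 4.23-fold lower under tiamulin, a log2(fold change) of -2.08 (SE 0.16, 95% interval -2.41 to -1.75). The next member by the size of this difference was Klf4, at -0.98. When GC content and gene length were corrected for in each library, the 3 values of Klf2 were 3.52, 1.37 and -2.15, close to those without.

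**Figure D1:**
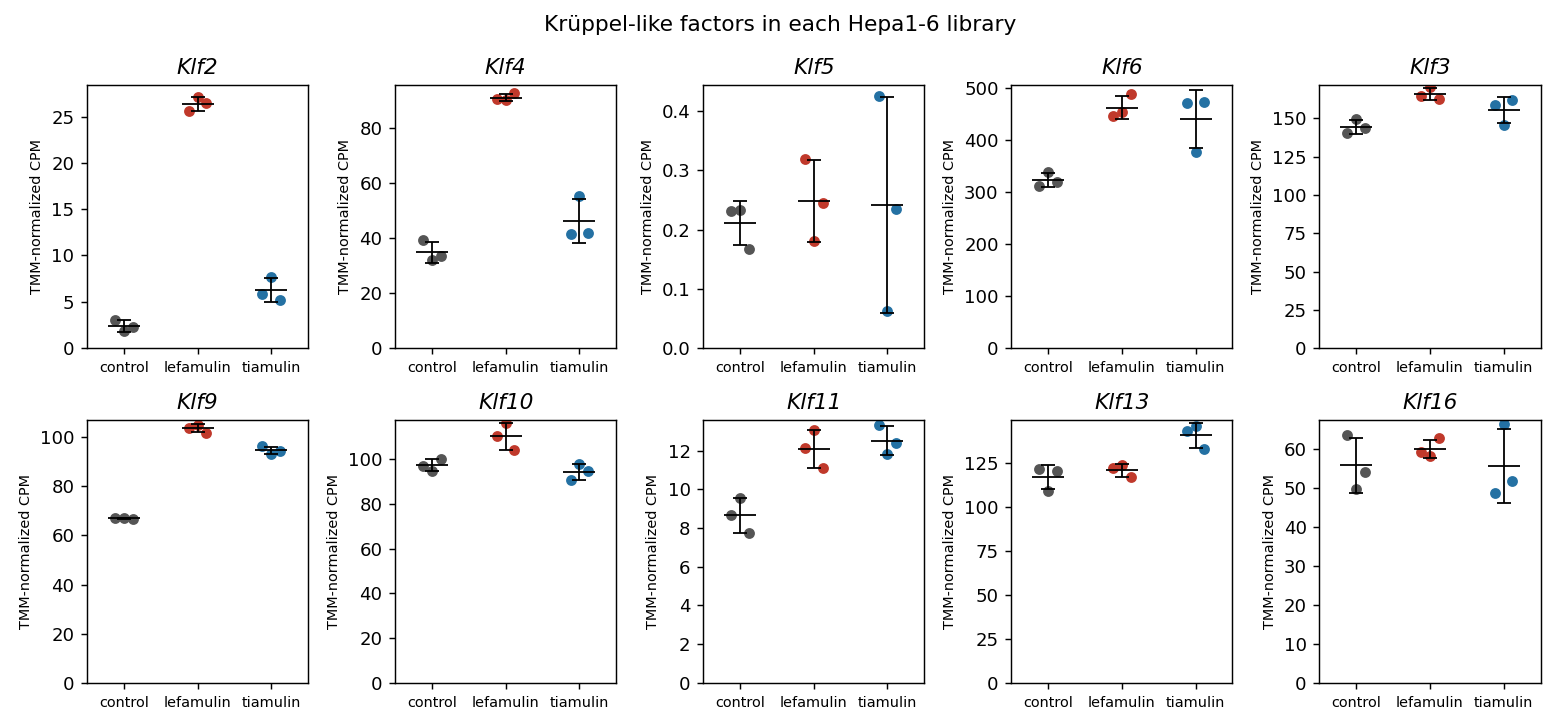
TMM-normalized CPM (linear axes from 0) of the 10 members in each library. Points are the 3 libraries of a group, the long bar is their mean and the error bar the SD. Klf2 and Klf4 stand highest in the lefamulin libraries, with the tiamulin libraries between them and the controls, and Klf5 stays below 0.5 CPM in every library.

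Among the other activators, Klf4 and Klf6 rose under both drugs and Klf5 was near the limit of detection. Klf4 (ENSMUSG00000003032, chromosome 4, 55527143 to 55532466, minus strand), a factor of pluripotency and epithelial differentiation, had 39.1, 31.8 and 33.3 CPM in controls 1 to 3. The lefamulin libraries had 90.4, 90.1 and 92.5 CPM, and the tiamulin libraries 41.3, 55.2 and 42.0. All treated libraries lay above all controls, and tiamulin 2 stood above the other tiamulin libraries. Under lefamulin the Klf4 level was 2.62-fold that of the control (95% interval 2.24 to 3.07), a log2(fold change) of 1.39 (SE 0.11, edgeR adjusted p = 1.60e-06, quasi-likelihood test, Benjamini-Hochberg over 14510 genes). Under tiamulin it was 1.33-fold (1.13 to 1.56), a log2(fold change) of 0.41 (SE 0.11, edgeR adjusted p = 0.0177). This smaller rise depended on single libraries. Without tiamulin 2 the log2(fold change) was 0.26 (edgeR adjusted p = 0.0146), and the call was lost without control 2 (0.35, adjusted p = 0.0875) and without control 3 (0.38, adjusted p = 0.0843). Between the drugs, the Klf4 level was 1.97-fold lower under tiamulin (log2(fold change) -0.98, SE 0.11, 95% interval -1.20 to -0.76), and the 2 groups did not overlap.

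Klf6 (ENSMUSG00000000078, chromosome 13, 5911481 to 5920393, plus strand) had the highest level of all Klf genes. Its CPM was 313, 339 and 320 in controls 1 to 3, 447, 454 and 489 in the lefamulin libraries, and 473, 377 and 475 in the tiamulin libraries. All treated libraries were above all controls, and tiamulin 2, high for Klf2 and Klf4, was the lowest of its group here. The log2(fold change) of Klf6 was 0.52 under lefamulin (SE 0.08, edgeR adjusted p = 6.17e-04). Under tiamulin it was 0.45 (SE 0.08, edgeR adjusted p = 0.00135) and 0.55 without tiamulin 2. Between the drugs it was -0.07 (95% interval -0.24 to 0.10), an interval that holds neither a rise nor a fall as large as that against the controls. Klf5 (ENSMUSG00000005148), a factor of proliferating intestinal crypt cells, had 1 to 7 counts in each library, with 0.210 ± 0.0371 CPM in the controls, 0.248 ± 0.0694 under lefamulin and 0.241 ± 0.182 under tiamulin (SD, n = 3). It was not tested, and a difference between groups was not detectable at this depth.

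The CtBP-binding member, Klf3 (ENSMUSG00000029178), moved little. It had 145 ± 4.58 CPM in the controls, 166 ± 4.03 under lefamulin and 155 ± 8.65 under tiamulin (SD, n = 3). Under lefamulin its log2(fold change) was 0.20 (SE 0.06, edgeR adjusted p = 0.0379), and under tiamulin 0.10 (SE 0.06, adjusted p = 0.253). The call under lefamulin was lost when any 1 control or lefamulin library was left out, with edgeR adjusted p values from 0.0533 to 0.155. Without tiamulin 2, Klf3 passed under tiamulin as well (log2(fold change) 0.15, edgeR adjusted p = 0.0262). Genes that overlap Klf3 had at most 15 counts in a library, against 2330 to 2828 for Klf3 itself.

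Of the 5 Sin3-binding members, Klf9 and Klf11 rose under both drugs, Klf13 rose under tiamulin, and Klf10 and Klf16 did not pass the test under either drug. Klf9 (ENSMUSG00000033863, chromosome 19, 23118590 to 23145498, plus strand) had replicates close to each other. Controls 1 to 3 had 66.9, 67.2 and 66.6 CPM, libraries with lefamulin 104, 105 and 102, and libraries with tiamulin 96.2, 93.1 and 94.3. The 3 groups were apart, with lefamulin highest and the controls lowest. On the log2 scale it changed by 0.63 under lefamulin (SE 0.06, edgeR adjusted p = 4.92e-06) and 0.50 under tiamulin (SE 0.06, adjusted p = 2.96e-05). Between the drugs it was -0.13 (95% interval -0.25 to -0.01), a small part of the change against the control. Klf9 kept its call under both drugs in every alternative fit.

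Klf11 (ENSMUSG00000020653, chromosome 12, 24701273 to 24712788, plus strand), which has been linked to monogenic diabetes, was among the less abundant members. Controls 1 to 3 had 8.66, 9.54 and 7.76 CPM, libraries with lefamulin 12.1, 13.1 and 11.1, and libraries with tiamulin 13.3, 11.8 and 12.4. All treated libraries were above all controls, and the 2 drugs overlapped. Against the controls, Klf11 changed by 0.48 under lefamulin (log2 scale, SE 0.12, edgeR adjusted p = 0.0169) and 0.53 under tiamulin (SE 0.12, adjusted p = 0.00750). Under lefamulin the call was lost without control 1, control 3, lefamulin 1 or lefamulin 2, with edgeR adjusted p values from 0.0541 to 0.0903. Between the drugs the log2(fold change) was 0.05 (95% interval -0.20 to 0.30).

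Klf13 (ENSMUSG00000052040), known as an activator of Ccl5 in T cells, had 121, 109 and 120 CPM in controls 1 to 3, 122, 124 and 117 in the lefamulin libraries, and 143, 146 and 133 in the tiamulin libraries. Unlike Klf2, it stood highest under tiamulin, where all libraries were above those of both other groups. Its log2(fold change) was 0.27 under tiamulin (SE 0.06, edgeR adjusted p = 0.00967) and 0.05 under lefamulin (SE 0.06, adjusted p = 0.679). Between the drugs it was 0.22 (95% interval 0.08 to 0.35). Without control 2 the call under tiamulin was lost (0.22, edgeR adjusted p = 0.0575).

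Klf10 (ENSMUSG00000037465), first described as an early gene induced by TGF-beta, had 97.3 ± 2.59 CPM in the controls, 110 ± 6.11 under lefamulin and 94.4 ± 3.64 under tiamulin (SD, n = 3). It changed by 0.18 on the log2 scale under lefamulin (SE 0.06, edgeR adjusted p = 0.0691) and by -0.04 under tiamulin (SE 0.06, adjusted p = 0.691). It passed under lefamulin without tiamulin 2 (0.18, edgeR adjusted p = 0.0106). Between the drugs it was -0.22 (95% interval -0.36 to -0.09). Klf16 (ENSMUSG00000035397) had 55.9 ± 7.05, 60.1 ± 2.38 and 55.8 ± 9.48 CPM in control, lefamulin and tiamulin (SD, n = 3). As for Klf2 and Klf4, its highest control was control 1 (63.7 CPM) and its highest tiamulin library was tiamulin 2 (66.6 CPM). Klf16 changed by 0.11 on the log2 scale under lefamulin (SE 0.11, edgeR adjusted p = 0.593). Under tiamulin it was close to 0 (SE 0.11, edgeR adjusted p = 0.990) and -0.15 without tiamulin 2. Between the drugs it was -0.11 (95% interval -0.35 to 0.13), and -0.25 without tiamulin 2.

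**Figure D2:**
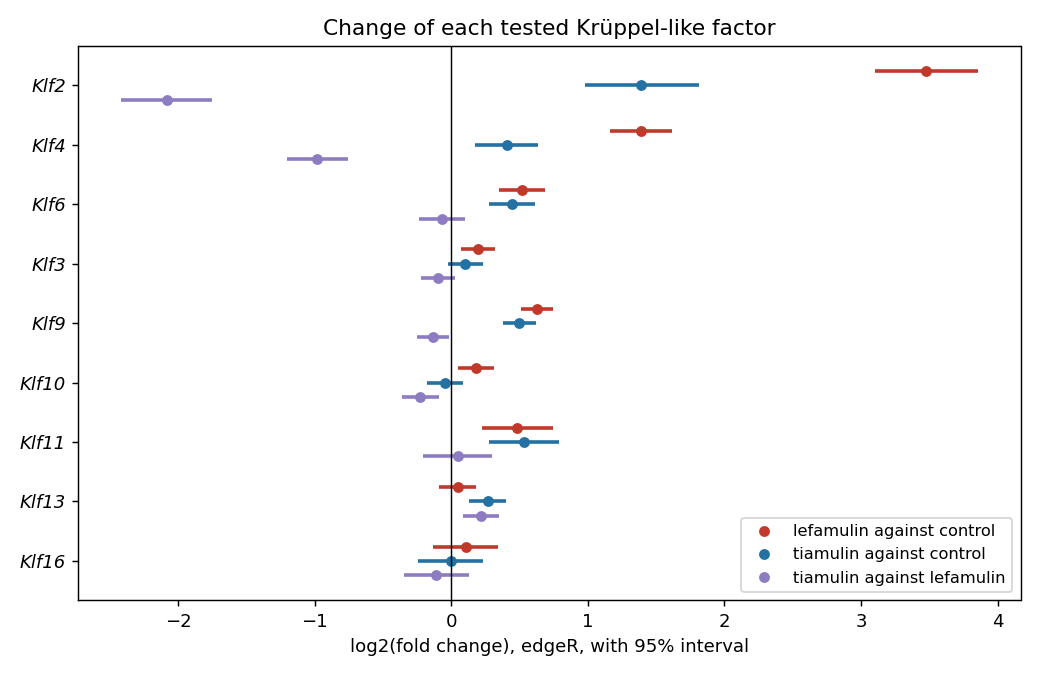
Change of the 9 tested members as log2(fold change) from edgeR (points) with 95% intervals (lines), for each drug against the control and for tiamulin against lefamulin. Klf2 and Klf4 are the members furthest from 0 for tiamulin against lefamulin (-2.08 and -0.98), where the other 7 lie between -0.22 and 0.22.

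In counts, 6 of the 9 tested members passed an adjusted p value of 0.05 by edgeR under lefamulin, all higher than the control, where 7.09% of all tested genes were called higher and 6.00% lower. Without Klf2 these were 5 of 8. Besides Klf2, 1 of 8, Klf4, also passed a log2(fold change) of 1, as did 0.979% of all genes in the higher direction. Under tiamulin, 6 of 9 members were called, again all higher, and 5 of 8 without Klf2, where 9.08% of all genes were called higher and 7.34% lower. Besides Klf2, 0 of 8 passed a log2(fold change) of 1 there (1.05% of all genes, higher direction). The median log2(fold change) of the 8 members other than Klf2 was 0.34 under both drugs, while that of all genes was near 0 (-0.0018 under lefamulin and 0.0034 under tiamulin). Both comparisons use the same 3 controls, and the members were not drawn independently of earlier results. Leaving out 1 library at a time gave 4 to 7 members called under lefamulin and 4 to 7 under tiamulin. Over all genes and both directions, these fits called 993 of 14839 to 3708 of 14886 under lefamulin and 1462 of 14839 to 3433 of 14886 under tiamulin. Between the drugs, 2 members were called, Klf2 and Klf4, against 4.90% of all genes in either direction. The number of members was 4 without tiamulin 2, where 1309 of 14886 genes were called. Without that library, the values between the drugs were -2.26 for Klf2, -1.13 for Klf4, 0.03 for Klf6, -0.05 for Klf3, -0.12 for Klf9, -0.25 for Klf10, 0.09 for Klf11 and 0.19 for Klf13 on the log2 scale. The values of tiamulin against control not given above were then 0.51 for Klf9, -0.07 for Klf10, 0.57 for Klf11 and 0.24 for Klf13. The contrast between the drugs chose Klf2, and nothing is read from the counts of members called in it.

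Per transcript length, the changes in Klf2 and Klf4 altered the order of the family. In FPKM, Klf6 was highest in every group, with 73.4 ± 3.13 in the controls, 105 ± 5.16 under lefamulin and 99.98 ± 12.2 under tiamulin (SD, n = 3). In the controls it was followed by Klf10 at 23.2 FPKM and Klf16 at 20.8, which overlapped, and then by Klf13 at 15.4, Klf9 at 13.8, and Klf3 at 12.8 and Klf4 at 11.3, of which the last pair overlapped. Klf2 was in place 11 of 17 in the controls, at 1.27 ± 0.344 FPKM (SD, n = 3), below Klf11 (1.98) and above Klf1 (0.348) without overlap with either. Under lefamulin Klf2 was in place 8, at 14.2 ± 0.427 FPKM (SD, n = 3), a level that overlapped with that of Klf3 (14.7) and was above that of Klf7 (8.18). Under tiamulin it was in place 9, at 3.36 ± 0.717 FPKM (SD, n = 3), below Klf7 (5.66) and overlapping with Klf11 (2.87). Klf4 moved from place 7 in the controls to place 2 under lefamulin, at 29.7 ± 0.441 FPKM (SD, n = 3), above Klf10 without overlap. Under tiamulin it was in place 6, at 15.1 ± 2.63 FPKM (SD, n = 3), overlapping with Klf13 above and Klf3 below it. Klf9 and Klf13 changed order as well. Klf13 was above Klf9 in the controls, and Klf9 (21.4 FPKM) was above Klf13 (15.9) under lefamulin, both without overlap.

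**Figure D3:**
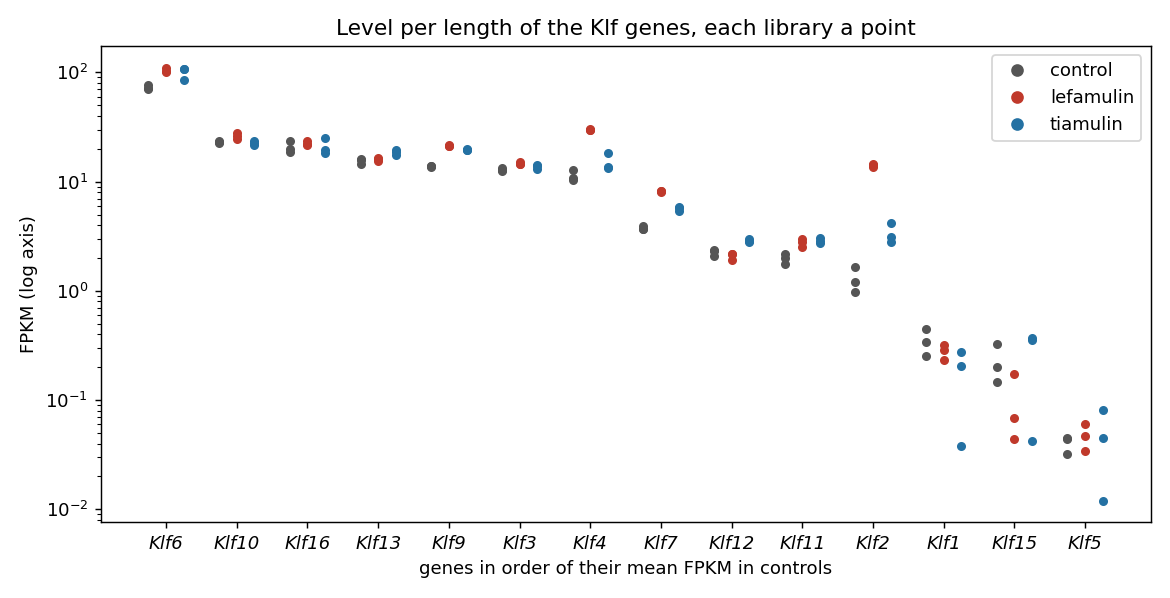
Level per transcript length (FPKM, log axis) of the Klf genes in each library, in the order of their mean in the controls. Each point is 1 library, Klf8, Klf14 and Klf17 are left out, and Klf2 reaches the range of Klf3 under lefamulin (14.2 and 14.7 FPKM on average).

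Among the Klf genes outside the members, Klf7 showed the order of groups seen for Klf2 and Klf4. Klf7, an activator with a role in neurons and adipocytes, had 30.3, 30.1 and 32.4 CPM in controls 1 to 3, 67.2, 67.8 and 65.8 in the lefamulin libraries, and 46.8, 44.1 and 47.8 in the tiamulin libraries. The 3 groups did not overlap. Its change was 1.11 on the log2 scale under lefamulin (SE 0.07, edgeR adjusted p = 1.93e-07), 0.58 under tiamulin (SE 0.07, adjusted p = 6.24e-05), and -0.53 between the drugs (95% interval -0.68 to -0.39). Klf12, a CtBP-binding repressor, rose under tiamulin (0.34, SE 0.10, edgeR adjusted p = 0.0235) and had a log2(fold change) of -0.11 under lefamulin (adjusted p = 0.526). Klf15 was tested at 0.630 CPM in the controls and did not pass under either drug. Klf1, Klf8, Klf14 and Klf17 were not tested, and Klf8 had 0 counts in every library. Of the Sp factors, which bind the same GC boxes, 5 of 9 were tested and 1 passed (6.00% of all genes were lower under lefamulin), Sp5, which fell under lefamulin (-0.60, SE 0.14, edgeR adjusted p = 0.0180), with -0.40 under tiamulin (adjusted p = 0.0787). Sp1, the most abundant of them at 206 CPM in the controls, had 0.08 and 0.03.

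The ERK5-MEF2 and CCM list holds the kinases and MEF2 factors upstream of Klf2 in endothelium and the CCM proteins that restrain them. Of 15 genes, 13 were tested, and 0 passed as higher under either drug, where 7.09% and 9.08% of all genes did. Under lefamulin 3 were lower (6.00% of all genes), the MEF2-binding class IIa deacetylases Hdac7 (-0.41, SE 0.09, edgeR adjusted p = 0.00625) and Hdac5 (-0.37, SE 0.10, adjusted p = 0.0262) and the factor Mef2d (-0.27, SE 0.08, adjusted p = 0.0418). Under tiamulin 0 of the 13 passed, and Hdac7, Hdac5 and Mef2d had -0.15, -0.04 and -0.04. Mapk7, which encodes ERK5, had a log2(fold change) of 0.16 under lefamulin and 0.14 under tiamulin. The corresponding values were -0.08 and 0.05 for its kinase Map2k5 and 0.13 and 0.05 for Mef2a, and none of these 3 genes passed. Mef2c was too low to test, at 0.133, 0.228 and 0.160 CPM in control, lefamulin and tiamulin. Mef2b, also not tested, had 1 count in each control, 4 to 9 under lefamulin and 4 to 9 under tiamulin, so all treated libraries were above all controls at very low counts. These are transcript levels and do not measure the activity of the kinases. The median of the list was -0.05 under lefamulin and 0.05 under tiamulin. The list mixes genes that drive Klf2 with genes that restrain these, so neither its median nor its counts have a direction to compare with Klf2.

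Of 11 genes known to depend on KLF2 in endothelium or T cells, 5 were tested. Nos3, Thbd, Tek, Ccr7 and Sele were among those too low to test. Under lefamulin 1 was higher and 1 lower (7.09% and 6.00% of all genes), and under tiamulin 0 were higher and 1 lower (9.08% and 7.34%). Itgb7, an integrin of gut-homing lymphocytes, rose under lefamulin from 0.418 to 1.14 CPM (1.42, SE 0.41, edgeR adjusted p = 0.0350), and had 0.997 CPM under tiamulin (1.23, SE 0.42, adjusted p = 0.0579). S1pr1, the sphingosine-1-phosphate receptor that KLF2 activates in T cells, fell under both drugs, by 0.46 on the log2 scale under lefamulin (SE 0.14, edgeR adjusted p = 0.0457) and by 0.57 under tiamulin (SE 0.14, adjusted p = 0.0138). Edn1, which KLF2 represses in endothelium, had 13 to 24 counts in the controls, 5 to 12 under lefamulin and 5 to 18 under tiamulin, with log2 values of -1.15 (SE 0.51, edgeR adjusted p = 0.154) and -0.52 (SE 0.47, edgeR adjusted p = 0.507). Vcam1 and Cdkn1a did not pass under either drug. The median of the 5 tested genes was -0.12 under lefamulin and 0.04 under tiamulin, but the list mixes genes that KLF2 activates with genes that it represses, so the median has no direction to compare with Klf2.

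All 12 genes for cofactors and turnover of KLFs were tested, and most did not pass. The class I deacetylase Hdac1, a partner of Sin3, fell under both drugs (-0.21, SE 0.06, adjusted p = 0.0365 under lefamulin, and -0.36, SE 0.06, adjusted p = 0.00112 under tiamulin, both by edgeR). Sin3a itself fell under lefamulin (-0.22, SE 0.06, edgeR adjusted p = 0.0385) and had -0.11 under tiamulin, and the acetyltransferase gene Crebbp was the third to fall under lefamulin. Under tiamulin the ubiquitin ligase gene Wwp1, whose product targets KLF2, fell (-0.29, SE 0.08, edgeR adjusted p = 0.0167), and Smurf1, also a ubiquitin ligase, rose (0.33, SE 0.07, adjusted p = 0.00789). Under lefamulin, Wwp1 had -0.09 and Smurf1 0.15, and neither passed. In total 3 genes of the list were lower and 0 higher under lefamulin (6.00% and 7.09% of all genes). Under tiamulin 2 were lower and 1 higher (7.34% and 9.08% of all genes). The median of the list was -0.07 under lefamulin and -0.0045 under tiamulin.

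Several KLFs are counted among immediate early genes. Of 19 tested genes of that list, 5 were higher and 1 lower under lefamulin, where all genes had 7.09% and 6.00%. Under tiamulin 9 were higher and 0 lower, where all genes had 9.08% and 7.34%. The median of the list was 0.04 under lefamulin and 0.23 under tiamulin. Atf3, a stress-induced factor, had log2(fold change) values of 1.24 and 1.04 (edgeR adjusted p = 1.93e-07 and 1.02e-06). The phosphatase gene Dusp1 had 1.12 and 1.24 (edgeR adjusted p = 7.28e-07 and 2.24e-07). Jun had 0.87 and 0.71 (edgeR adjusted p = 0.00101 and 0.00346). The orphan receptor gene Nr4a1, like Klf2, was higher under lefamulin than under tiamulin, with 0.94 and 0.45 (edgeR adjusted p = 6.43e-05 and 0.0126) and a difference of -0.49 between the drugs (edgeR adjusted p = 0.0199). Fosl2, of the AP-1 family, differed the other way, by 0.39 between the drugs (edgeR adjusted p = 0.00382), and the median difference of the list between the drugs was 0.14. The gene that fell under lefamulin was Junb (-0.55, SE 0.15, edgeR adjusted p = 0.0297), and Fos did not pass under either drug.

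In the TGF-beta list, the pathway in which Klf10 and Klf11 were found, 12 of 13 genes were tested, with 2 higher and 1 lower under lefamulin and 2 higher and 2 lower under tiamulin. Of all genes, 7.09% were higher and 6.00% lower under lefamulin and 9.08% and 7.34% under tiamulin, and the median of the list was -0.06 and 0.08. Ccn2, a matrix protein and common reporter of TGF-beta and YAP activity, rose under both drugs (0.52 and 1.12, edgeR adjusted p = 1.08e-04 and 6.78e-08). Unlike Klf2, it was higher under tiamulin (342 CPM) than under lefamulin (225 CPM), from 157 CPM in the controls, a difference between the drugs of 0.61 on the log2 scale (edgeR adjusted p = 1.46e-04). The receptor genes went opposite ways under tiamulin, Tgfbr1 lower (-0.41, edgeR adjusted p = 0.0135) and Tgfbr2 higher (0.35, adjusted p = 0.00474). Skil, a feedback inhibitor, rose under lefamulin (0.31, edgeR adjusted p = 0.0160) and had 0.15 under tiamulin.

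The circadian and glucocorticoid list, chosen for Klf9, had 15 of 16 genes tested, with 4 higher and 1 lower under lefamulin (7.09% and 6.00% of all genes). Under tiamulin 6 were higher and 1 lower (9.08% and 7.34% of all genes), and the median of the list was 0.07 under lefamulin and 0.23 under tiamulin. Tsc22d3, a glucocorticoid-induced gene also called Gilz, went from 12.8 CPM in the controls to 44.3 under lefamulin and 28.2 under tiamulin. Its log2(fold change) values were 1.796 and 1.14 (edgeR adjusted p = 2.50e-08 and 1.65e-06). The circadian repressor gene Ciart rose (1.06 and 0.88, edgeR adjusted p = 5.07e-05 and 1.97e-04), as did the clock gene Per1 (0.41 and 0.58, adjusted p = 0.0251 and 0.00245). Fkbp5, also induced by glucocorticoids in many cells, fell under both drugs (-0.28 and -0.44, edgeR adjusted p = 0.0226 and 0.00108). The glucocorticoid-responsive genes of the list thus did not move one way.

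Across the 9 libraries, the genes whose log2 CPM was most like that of Klf2 were Ptgs1 (Pearson's r 0.990), Klf4 (0.987), Cyp1a1 (0.980), Rhob (0.980) and Nubp2 (0.976), out of 10935 protein-coding genes with a mean of at least 1 CPM. The 9 points form 3 groups and share their library totals, so r mainly follows the group means, and no p value is given. Rhob, which encodes a small GTPase, had the largest rise of these 5 genes under lefamulin, from 42.2 CPM in the controls to 224 under lefamulin and 104 under tiamulin. Ptgs1, which encodes cyclooxygenase-1, had 1.34, 4.55 and 2.07 CPM, and Cyp1a1, a target of the aryl hydrocarbon receptor, had 35.8, 74.1 and 47.8 CPM in the same order. Nubp2, of cytosolic iron-sulfur cluster assembly, had 31.2, 40.0 and 34.7 CPM. The lowest correlations were those of Dock4 (-0.985), Rasgrp3 (-0.985), Lix1l (-0.978), Hspa8 (-0.973) and Arid5b (-0.969). Of these, Rasgrp3, an activator of Ras, changed most, from 43.4 CPM in the controls to 27.01 under lefamulin and 37.7 under tiamulin. Hspa8, the constitutive Hsp70 chaperone, had 2123, 1726 and 1975 CPM. Within the family, the r with Klf2 was 0.888 for Klf9, 0.784 for Klf3, 0.752 for Klf10, 0.747 for Klf6, 0.663 for Klf11, 0.444 for Klf16 and 0.103 for Klf13.

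**Figure D4:**
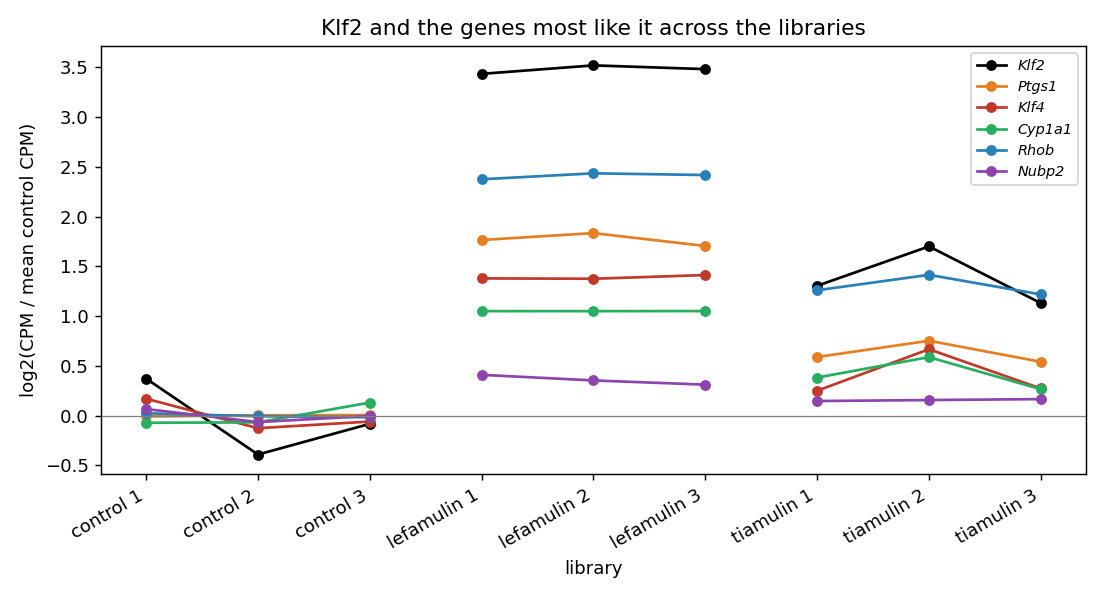
Level of Klf2 and of the 5 protein-coding genes most correlated with it, as log2 of the CPM over the mean CPM of the controls, in each of the 9 libraries. Lines join libraries of a group only to guide the eye. All 6 genes are highest under lefamulin and intermediate under tiamulin, and Klf2 changes most under lefamulin.

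Because Klf2 is abundant in endothelial and blood cells, markers of these cells were measured in the same libraries. In bulk RNA, more cells of a type and more RNA per cell cannot be told apart. Of 12 endothelial markers, 4 were tested, and Emcn, Cldn5 and Erg had 0 counts in every library. Cdh5, Kdr, Tek and Tie1 stayed below 0.3 CPM on average in each group. The summed level of the list was 40.2 to 44.6 CPM in the controls, 43.0 to 45.1 under lefamulin and 46.2 to 50.7 under tiamulin, most of it Esam. Within it Vwf rose under lefamulin (1.56, SE 0.30, edgeR adjusted p = 0.00322) and had 0.82 under tiamulin (SE 0.32, edgeR adjusted p = 0.0899). Its mean of 1.16, 3.45 and 2.07 CPM in control, lefamulin and tiamulin followed the order of the groups seen for Klf2. The other 3 tested markers were highest on average under tiamulin, Esam at 37.1, 34.9 and 38.3 CPM, Egfl7 at 2.80, 2.70 and 3.96 CPM and Pecam1 at 1.2, 2.95 and 3.17 CPM, and Esam and Egfl7 did not pass under either drug. Pecam1 rose under both drugs (1.29 and 1.39, edgeR adjusted p = 0.0101 and 0.00461). Of 9 blood cell markers, 4 were tested, and Cd3e, Cd3d and Adgre1 had 0 counts in every library. Their sum was 11.7 to 12.01 CPM in the controls, 12.6 to 18.1 under lefamulin and 16.5 to 21.9 under tiamulin, most of it Cd68 (8.35, 13.1 and 17.0 CPM on average). Ptprc rose (2.45 and 2.12, SE 0.63 and 0.65, edgeR adjusted p = 0.0168 and 0.0336). It had only 0 to 5 counts in the controls, 12 to 15 under lefamulin and 9 to 16 under tiamulin. Cd68 rose as well (0.65 and 1.02, edgeR adjusted p = 0.0183 and 5.86e-04), and Csf1r fell (-1.33 and -1.32, adjusted p = 0.0119 and 0.00949). Cd79a, the remaining tested marker, had -1.04 and -1.67 and did not pass under either drug (edgeR adjusted p = 0.274 and 0.0882). The part of these cells in the Klf2 level was not tested.

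Hepatoma markers were expressed, and their sum was 2446 to 2654 CPM in the controls, 2359 to 2512 under lefamulin and 1904 to 2065 under tiamulin. Of 9 such markers, 7 were tested, while Apoa1 and Ttr were below 0.3 CPM on average in each group. Afp, the fetal albumin-like protein of hepatomas, fell under tiamulin (-0.81, SE 0.06, edgeR adjusted p = 5.45e-07) and had -0.12 under lefamulin (adjusted p = 0.172). Alb fell under both drugs (-0.24 and -0.50, edgeR adjusted p = 0.0166 and 7.56e-05), Fgb fell under tiamulin (-0.42, adjusted p = 2.84e-04), and Trf rose under lefamulin (0.27, adjusted p = 0.00465). The fibroblast list, summed at 1508 to 1594 CPM in the controls, 1148 to 1200 under lefamulin and 1063 to 1157 under tiamulin, was almost wholly Dcn. Dcn fell under both drugs (-0.42 and -0.49, edgeR adjusted p = 8.99e-05 and 1.58e-05). Pdgfra fell under lefamulin (-0.46, edgeR adjusted p = 0.00559) and had 0.14 under tiamulin (adjusted p = 0.347). Col1a2, Lum and Thy1 were at or near 0 counts.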

How the data were processed

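For each gene and library, the authors deposited a whole-number read count, not normalized, and an FPKM value. The submitters' processing notes name CASAVA 1.8, fastp, HISAT2 2.0.5, featureCounts 1.5.0-p3, DESeq2 1.20.0 and mm10, without roles. However, 2.86% of 52086 nuclear genes have their GRCm38 start and end in the table, so deposited positions belong to another build. The strand setting is not given in the sources used here.

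Counts were TMM-normalized and tested with edgeR 4.0.16 (R 4.3.3; filterByExpr with a minimum count of 10, robust dispersions, quasi-likelihood test), using all 9 libraries in 1 model whose only term was the group. P values were adjusted by Benjamini-Hochberg over 14510 genes, and called genes had an adjusted p value below 0.05. Standard errors and 95% intervals came from the same fit and are not adjusted for the number of genes. The members and gene lists were chosen with earlier results of these data known. Named are all members, the other Klf genes, the Sp genes by their counts, the 5 most and 5 least correlated with Klf2 (log2 CPM, prior count 2), Mapk7, Map2k5, Mef2a, Mef2c and Mef2d, and at most 4 called genes per list with the largest change. A few other genes (Sp1, Mef2b, Edn1, Fos, Fosl2, Egfl7, Esam, Junb, Crebbp and untested or uncalled list genes) were named after their values were seen. Alternatives were DESeq2 size factors, DESeq2 1.42.0, no filter, at least 10 counts in every library, the compared groups alone, the replicate number as a block, offsets for GC content and gene length with and without that block, limma 3.58.1 on log2(FPKM + 1) and log2(FPKM + 0.1) for genes over 1 FPKM in at least 3 libraries, and leaving out each library. Promoters came from RefSeq (GRCm38.p6), cut to the 250 bases before the start. Some list genes are not reported here.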

Additional observations from a re-analysis of the deposited data

How the results depend on the processing

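The Klf2 difference kept its direction in every alternative. Limma on log2(FPKM + 1), whose added 1 shrinks low levels, gave a log2(fold change) of 2.75 under lefamulin, 0.94 under tiamulin and -1.81 between the drugs. Leaving out 1 library gave 3.32 to 3.70, 1.22 to 1.62 and -2.26 to -1.96. When 1 library was left out, 4 to 7 members were called under lefamulin and 4 to 7 under tiamulin. Between the drugs it was 2 to 4 (4 without tiamulin 2). Calls over all genes in those fits ran from 993 of 14839 to 3708 of 14886 under lefamulin and from 1462 of 14839 to 3433 of 14886 under tiamulin. Between the drugs, 1309 of 14886 genes were called without tiamulin 2, against 711 of 14510 in the main fit. With GC and length offsets (1924 of 14510 genes called) and with DESeq2, 4 members were called between the drugs, against 2 in the main fit. That contrast chose Klf2, so nothing is read from its counts. Signs of values near 0 changed: Klf16 under tiamulin had 0.0041 without a filter and, with 1 library left out, -0.15 to 0.10, above 0 without control 1, tiamulin 1 (0.084) or tiamulin 3 (0.047). Between the drugs, Klf6 had -0.12 to 0.033 (the latter without tiamulin 2) and Klf11 -0.010 (without lefamulin 3) to 0.11. The cause was not tested.

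Replicate numbers do not pair the samples (same-number correlations of -0.539 to 0.068, with 3 of 18 comparisons best with the own number). With the number as a block, 5 members were called under lefamulin, 6 under tiamulin and 2 between the drugs. Of 14510 genes, 1304, 1811 and 263 were called in these comparisons. Klf3 was lost under lefamulin (adjusted p = 0.0936 by edgeR), and Klf2 had 3.47, 1.39 and -2.09. Klf3 under lefamulin was also lost without a filter and on both FPKM scales, and Klf4 under tiamulin on both FPKM scales and with the compared groups alone. Klf10 under lefamulin was gained with GC and length offsets and with the groups alone. Calls over all genes moved more. They were 1900 under lefamulin (993 to 3708 over the alternatives, the lowest without control 3 and the highest without tiamulin 2), 2383 under tiamulin (1462 without control 3 to 3880 with GC and length offsets) and 711 between the drugs (204 without lefamulin 3 to 1924 with GC and length offsets, 1309 without tiamulin 2 and 263 with the block).

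With 3 libraries per group and 31 to 53 Klf2 reads per control, the fold change of Klf2 has a wide interval, and differences in Klf5 could not be detected.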

Other observations

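The 3 genes on each side of Klf2 on chromosome 8 were taken from the same fit. Eps15l1, 19343 bases after it in the deposited positions, had a log2(fold change) of -0.10 under lefamulin and -0.16 under tiamulin, and Ap1m1, 61648 bases before it, had -0.16 under both drugs; none of these passed. Fam32a had -0.09 under lefamulin and fell under tiamulin (-0.22, adjusted p = 0.0210 by edgeR). Hmgn2-ps, 13773 bases before Klf2, fell under both drugs (-0.65, SE 0.09, adjusted p = 2.64e-04, and -0.76, SE 0.09, adjusted p = 5.47e-05 by edgeR). Its name marks it as a pseudogene, although it was deposited as protein-coding, and its reads may be shared with near-identical copies. Calr3, with 16 to 39 counts per library, had 0.35 under lefamulin and 0.06 under tiamulin (SE 0.37 each), in the order of Klf2, and 1700030K09Rik had -0.22 and 0.16; neither passed. Before Klf4 on chromosome 4, Tmem38b (0.23 and 0.08), Zfp462 (-0.15 and 0.05) and Rad23b (0.03 and -0.10) did not pass under either drug, and the 3 genes after it had at most 5 counts in a library. The neighbours of Klf4 lay 134906 to 1665124 bases before it and 1207539 bases or more after it. For both Klf2 and Klf4, the genes were the nearest ones deposited as protein-coding, chosen by position alone.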
